A study of Mus musculus with 6 samples.

Results

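Solute carriers are the membrane proteins that move sugars, amino acids, nucleosides, vitamins, metal ions and inorganic ions across the plasma membrane and the membranes of organelles. The genes described here are those whose name on the array is Slc, a family number and a letter, without the mitochondrial Slc25a family and without the red cell anion exchanger Slc4a1 and the iron carriers Slc11a2 and Slc40a1. Of 34821 gene names on the array, 321 met that rule, and 194 of the 321 also met the rule on detection, which asks that the brightest probe of the gene carry the scanner's flag for a signal well above background on 3 arrays or more. These 194 were among 22022 genes tested. They were chosen by the mean signal and the detection flags of these same arrays, not by the difference between the groups. The other 127 had too few arrays above background for a level. Of the 194, 6 have a name that fits but were set apart by name as non-carriers (Slc22a13b-ps, Slc2a4rg-ps, Slc4a1ap, Slc7a6os, Slc9a3r1 and Slc9a3r2). Slc22a13b-ps was placed there for the ending of its array name, and the RefSeq symbol of its probe is Slc22a13b.

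Families are numbered by sequence, and members of one family can carry different substrates or run in opposite directions. In zinc handling, the ZIP proteins (Slc39a) bring zinc into the cytosol and the ZnT proteins (Slc30a) take it out, into vesicles or out of the cell. Some amino acid carriers work only as a pair, in which a heavy chain (Slc3a1 or Slc3a2) takes a light chain of the Slc7a family to the membrane. A maturing red cell uses such carriers for the glycine, iron, zinc, folate and glucose that haem synthesis, division and energy supply need.

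RNA came from the mouse line G1E-ER-GATA-1, made of erythroid precursors without GATA-1 of their own and with GATA-1 joined to an oestrogen receptor domain, a fusion that oestradiol switches on. Both groups received siRNA at 0 h and at 24 h, had oestradiol from 24 h to collection at 48 h, and were grown with erythropoietin and Kit ligand medium. The siRNA was non-targeting in the control group (3 samples) and directed against Mi2β, the nucleosome remodelling ATPase of the NuRD complex encoded by Chd4, in the knockdown group (3 samples). All 6 samples are of 1 line, and the labels do not say that samples of a group were separate cultures, so p-values measure only how these samples vary, and that variation may be technical.

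Levels are log2 of the background-subtracted intensity minus the 75th percentile of the array, so 0 is the level of that percentile and a difference of 1 is 2-fold. Levels of different genes come from different probes and are not compared. Rose and fell are used only where limma gave an adjusted p under 0.05, with Benjamini-Hochberg adjustment over all genes tested. A bare value in parentheses that follows a change or a lost call is that adjusted p. Chd4 was at 5.93, 6.00 and 5.75 on the control arrays and at 4.62, 4.6 and 4.54 on the knockdown arrays. It fell 2.48-fold (log2 change -1.31, SE 0.10, limma adjusted p = 0.00159).

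All 6 arrays lay on 1 slide and were scanned together. The share of spots well above background was 53.4% to 56.8% on the control arrays, against 61.5%, 74.0% and 48.9% on knockdown arrays 1 to 3. The solute carrier names followed the same order, with 178 to 193 of 321 above background on the control arrays and 206, 247 and 172 on the knockdown arrays. Knockdown array 2 was the only array above background for 36 of the 42 names with exactly 1 such array, and it was among the 3 arrays of all 11 names that passed with exactly 3. Erythroid markers were present (9 of 9 detected), with a summed level of 10.64 to 10.76 on the control arrays and 11.02 to 11.16 on the knockdown arrays. Of 5 megakaryocyte markers 3 were detected, with a summed level of 4.93 to 5.19 against 3.24 to 3.67. Pf4 and Gp9 fell (-1.62 and -2.18), and the third, Itga2b, went the other way without passing the threshold (change 1.51, limma adjusted p = 0.0506). Ppbp was above background on no array. The summed levels of mast cell markers (3 of 5 detected) were -0.95 to -0.69 against -0.63 to -0.41, and those of myeloid markers (3 of 6 detected) were 2.19 to 2.59 against 2.20 to 2.32. The part of these differences in the results on solute carriers was not tested. In bulk RNA, fewer cells of a type and less RNA per cell cannot be told apart.

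Among the 194 solute carrier genes, 20 rose and 7 fell with Mi2β knocked down. That is 10.3% and 3.61% of them, against 4.98% and 4.58% of all genes tested (9.56% in either direction). At least 2-fold, 14 rose and 4 fell, against 2.52% and 0.890% of all genes. The median change was -0.04, and it was -0.03 over all genes, so that the middle of the group stayed where the array as a whole was. The 2 groups of arrays did not overlap for 72 genes (37.1%), against 31% of all genes. A member that passed detection through the group in which it was high had to differ, so the count was also taken over the 163 genes above background on all 6 arrays: 17 rose and 7 fell, with a median of -0.09. Among all genes of that kind, 946 of 18603 rose and 987 fell, with a median of -0.05.

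The count of rises depended on single arrays. It was 12 without knockdown array 1 or knockdown array 2, 13 without control array 2 or control array 3, 15 without control array 1 and 18 without knockdown array 3, while the falls numbered 5 to 8. With the slide row as a block, 19 rose and 8 fell. Within row 1, which holds 2 arrays of each group, 12 rose and 3 fell, and row 2 holds 1 array of each group and allows no test. The split between rises and falls also moved with the scaling: 21 and 16 with the normexp background correction, 26 and 15 with normexp and quantile normalization, and 8 and 5 with the array median in place of the 75th percentile. Of the 27 calls, 10 held under every alternative that could measure them. Among these were the rises of Slc22a17, Slc5a2, Slc26a9 and Slc6a8 and the falls of Slc39a3, Slc39a10 and Slc16a13. The other three, Slc51a, Slc7a9 and Slc6a12, could not be measured with detection on all 6 arrays, and Slc7a9 and Slc6a12 had passed detection through the knockdown arrays alone.

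**Figure D1:**
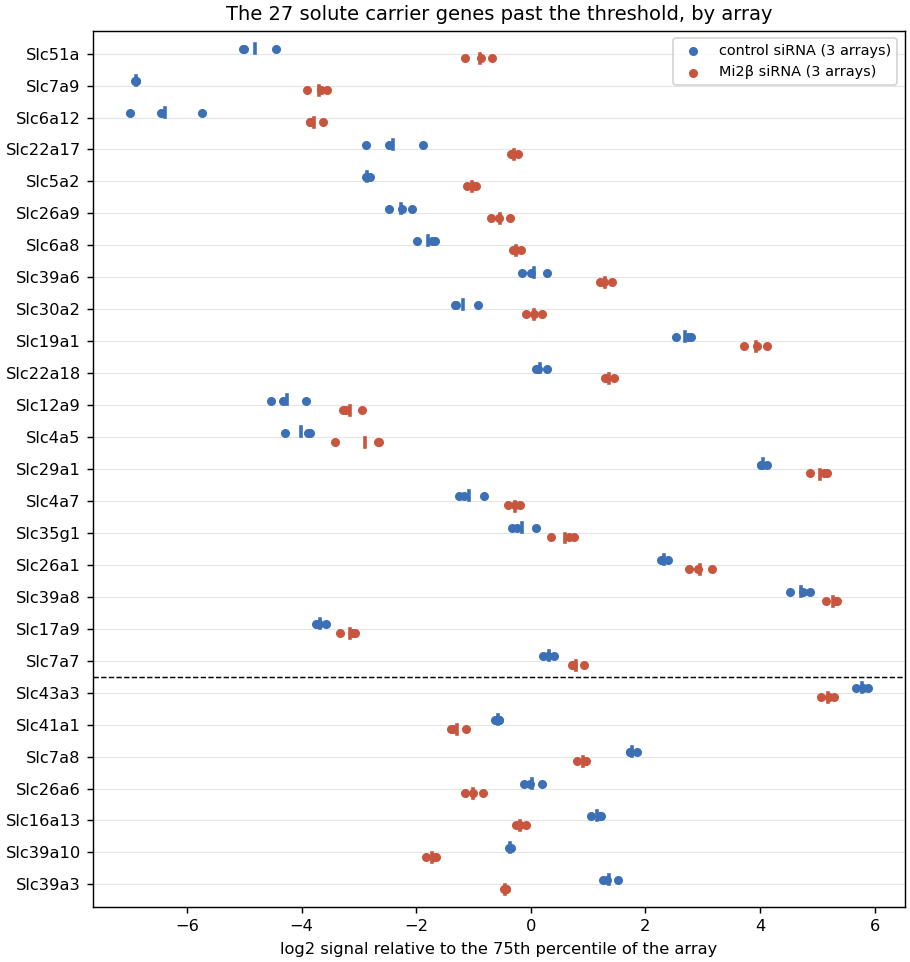
Level of each of the 27 changed solute carrier genes on each array, in log2 units relative to the 75th percentile of the array (horizontal axis), with 3 control arrays in blue and 3 knockdown arrays in red and the group mean as a short bar. The 20 genes above the dashed line rose and the 7 below it fell, from Slc51a (log2 change 3.93) at the top to Slc39a3 (-1.82) at the bottom. Levels of different genes come from different probes and are not to be compared down the plot.

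The 3 largest fitted rises were those of Slc51a, Slc7a9 and Slc6a12, whose control signals were mostly not well above background. Slc51a encodes the alpha subunit of the bile acid and steroid exporter OST. Its control levels were -5.00, -5.03 and -4.44, and its knockdown levels were -0.67, -0.86 and -1.15. Every knockdown array was far above every control array, of which only 1 was well above background. The fitted change was 3.93 (SE 0.21, limma adjusted p = 0.000515). A second probe was above background on only 3 arrays, with group means of -6.57 (control) and -2.05 (knockdown). Its fitted change of 4.52 is therefore given as a description and not as separate support. The probe that stood for Slc51a lies at chr16:32475636-32475695 (mm9). The partner subunit gene Slc51b was above background on no control array and on 1 knockdown array, so it was not tested. It was looked up after the value of Slc51a was seen.

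Slc7a9 and Slc6a12 were the only members above background on no control array that passed detection. Slc7a9 encodes the light chain of the cystine and dibasic amino acid carrier of the kidney, and its 3 control arrays, at -6.89, -6.89 and -6.90, were not well above background. Its knockdown levels were -3.90, -3.66 and -3.55, which is at least 2.10-fold higher when the control arrays are set at the lowest signal well above background on each (fitted change 3.19, limma adjusted p = 0.000157). The heavy chain gene of that carrier, Slc3a1, was above background on none of the 6 arrays, as found after the value of Slc7a9 was seen. Slc6a12, which encodes a carrier of betaine and GABA, was at -5.73, -6.45 and -6.99 on the control arrays and at -3.86, -3.62 and -3.86 on the knockdown arrays, at least 1.99-fold higher by the same bound (fitted change 2.61, limma adjusted p = 0.0065). Both genes entered the test through their knockdown arrays alone, so the detection rule had fixed that they differ, and their p-values are given as a description. With normexp, which adds an offset of 50 to every signal, the fitted changes were 1.79 for Slc51a, 0.49 for Slc7a9 and 0.34 for Slc6a12, all still past the threshold. The fitted sizes of these 3 changes therefore depend on the background correction.

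For 4 further genes the control signal was detected on all 3 arrays and the rise was above 2-fold under each setting tried. Slc22a17, which encodes a receptor for the iron-binding protein lipocalin 2, was at -2.48, -1.88 and -2.87 on the control arrays and at -0.22, -0.34 and -0.31 on the knockdown arrays (change 2.12, SE 0.25, limma adjusted p = 0.00598). The control arrays spread over about a log2 unit, while the knockdown arrays lay close together. Slc5a2, the sodium and glucose carrier SGLT2 of the kidney tubule, went from -2.86, -2.88 and -2.80 to -1.11, -1.0 and -0.95 (change 1.83, SE 0.09, limma adjusted p = 0.000401). Slc26a9, an epithelial chloride carrier and channel, went from -2.47, -2.25 and -2.07 to -0.55, -0.69 and -0.36 (change 1.73, SE 0.15, limma adjusted p = 0.00192). In each of these genes the lowest knockdown array was more than a log2 unit above the highest control array. The creatine carrier gene Slc6a8 was at -1.99, -1.73 and -1.67 on the control arrays and at -0.31, -0.26 and -0.17 on the knockdown arrays (change 1.55, SE 0.12, limma adjusted p = 0.00142). The probes of these 4 genes lie at chr14:55525582-55525641, chr7:135415884-135415943, chr1:133666246-133666305 and chrX:70927775-70927834 (mm9).

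The sequence just before the start is shown for Slc7a9, Slc22a17, Slc26a9 and Slc22a18, which hold a GATA motif there, and for Slc51a, which does not. Of the 16 risen genes with a sequence 8 hold that motif, and its part in the changes was not tested. Slc5a2 and Slc6a8 had no sequence in the set used. Each run is the 250 bases before an annotated start in RefSeq (GRCm38.p6), on the strand of the gene, 5′ to 3′, and capitals mark AGATAA or its reverse complement TTATCT. Slc7a9 holds 2 matches before the first of its 2 starts, Slc22a17, Slc26a9 and Slc22a18 hold 1 each, and Slc51a, the gene with the largest change, holds none in this window.
Slc7a9 (chr7:35448842-35449091, plus strand): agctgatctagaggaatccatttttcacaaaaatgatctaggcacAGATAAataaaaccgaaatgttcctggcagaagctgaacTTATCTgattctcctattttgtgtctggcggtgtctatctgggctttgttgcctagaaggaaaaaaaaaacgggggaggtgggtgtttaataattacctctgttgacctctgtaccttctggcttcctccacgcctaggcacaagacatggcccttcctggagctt
Slc22a17 (chr14:54913133-54913382, minus strand): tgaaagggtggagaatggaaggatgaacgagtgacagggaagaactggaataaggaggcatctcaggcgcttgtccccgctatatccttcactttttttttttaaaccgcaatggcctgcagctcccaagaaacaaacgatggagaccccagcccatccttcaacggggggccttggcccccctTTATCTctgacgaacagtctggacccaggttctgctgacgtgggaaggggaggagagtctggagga
Slc26a9 (chr1:131743772-131744021, plus strand): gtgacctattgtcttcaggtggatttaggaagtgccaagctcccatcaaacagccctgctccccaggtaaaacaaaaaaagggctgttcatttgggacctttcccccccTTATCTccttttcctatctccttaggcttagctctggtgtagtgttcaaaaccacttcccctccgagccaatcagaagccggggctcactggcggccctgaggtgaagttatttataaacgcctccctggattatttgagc
Slc22a18 (chr7:143473539-143473788, plus strand): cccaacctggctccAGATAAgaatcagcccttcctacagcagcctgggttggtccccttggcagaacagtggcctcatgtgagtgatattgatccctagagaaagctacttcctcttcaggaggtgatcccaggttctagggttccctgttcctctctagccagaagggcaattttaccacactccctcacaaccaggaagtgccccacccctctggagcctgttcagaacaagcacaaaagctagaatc
Slc51a (chr16:32487880-32488129, minus strand): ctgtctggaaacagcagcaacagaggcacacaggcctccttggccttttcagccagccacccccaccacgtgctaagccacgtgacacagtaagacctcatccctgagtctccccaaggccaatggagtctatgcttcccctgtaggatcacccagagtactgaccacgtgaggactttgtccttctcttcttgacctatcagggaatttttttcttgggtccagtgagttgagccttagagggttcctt

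Such windows were found for 249 of the 321 names and for 21 of the 27 changed genes. AGATAA, the motif that GATA factors bind, occurred on either strand before 8 of 16 risen genes (Slc22a17, Slc22a18, Slc26a1, Slc26a9, Slc29a1, Slc39a8, Slc7a7 and Slc7a9), before 1 of 5 fallen genes (Slc39a10) and before 9 of 133 tested members not past the threshold (6.77%). Over all genes of the table the share was 11.4%. Genes with several starts have several chances, and counted by window the shares were 9 of 35 for risen genes, 5.45% for members not past the threshold and 9.99% for all 32851 windows. Of 3 other motifs searched, the Klf-type CCNCNCCC was before 12 of 16 risen genes, 69.9% of tested members not past the threshold and 48.5% of all genes. The E-boxes CAGCTG or CAGATG were before 8 of 16, 28.6% and 28.2%, and the metal response element TGCACNC or TGCGCNC was before 7 of 16, 31.6% and 23.8%. Among the 5 fallen genes, CCNCNCCC was before 5, an E-box before 1 and the metal response element before 3. By window the shares for risen genes, members not past the threshold and all windows were 74.3%, 66.1% and 45.9% for CCNCNCCC, 34.3%, 24.2% and 25.5% for the E-boxes and 22.9%, 27.9% and 21.4% for the metal response element, whose share among risen genes was thus close to that of all windows. Matches of different motifs could overlap. The 4 motifs were chosen with the changes known, and a match describes letters and shows no binding.

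Carriers of amino acids and peptides made up the largest class, with 33 detected of 69, of which 4 rose and 2 fell (median change -0.10). Besides Slc7a9, Slc6a12 and Slc6a8, the rise was that of Slc7a7, the light chain y+LAT1 that exports dibasic amino acids, which went from 0.22, 0.30 and 0.40 to 0.74, 0.72 and 0.93. Its change was 0.49 (SE 0.11, limma adjusted p = 0.0426), and the call was lost with any 1 array left out (0.0659 to 0.141). Slc7a8, which encodes the light chain LAT2 of a carrier of neutral amino acids, moved the other way. It was at 1.85, 1.73 and 1.74 on the control arrays and at 0.81, 0.95 and 0.96 on the knockdown arrays, so that the groups were well apart (change -0.87, SE 0.10, limma adjusted p = 0.00475). The fall was not past the threshold within row 1 (0.0562) or with array median scaling (0.0761). Slc3a2, the heavy chain that both of these light chains need, was at 6.77, 6.64 and 6.61 against 6.44, 6.31 and 6.36 and was not past the threshold (change -0.30, limma adjusted p = 0.118).

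Slc43a3, placed here by its family although it is known as a carrier of purine nucleobases, was at 5.8, 5.88 and 5.67 on the control arrays and at 5.30, 5.21 and 5.07 on the knockdown arrays. Its change was -0.59 (SE 0.11, limma adjusted p = 0.0258), and the call held with control array 3 left out but with none of the other 5 (0.0438 to 0.0965 over the 6 arrays left out in turn). Amino acid carriers of red cell precursors follow, with changes that were not past the threshold. Slc6a9, the glycine carrier GlyT1 that feeds haem synthesis, was at 5.04, 5.14 and 4.85 against 4.54, 4.36 and 4.65. The groups did not overlap, but the change of -0.49 missed the threshold (limma adjusted p = 0.0694) and passed it under 6 of 22 alternatives (0.0153 to 0.484). The leucine carrier light chain gene Slc7a5 had a change of -0.48 (limma adjusted p = 0.203) and the glutamine carrier gene Slc38a5 one of -0.40 (0.0786). Smaller changes were measured for Slc1a5 (0.25), Slc38a1 (0.25), Slc38a2 (-0.16) and the arginine carrier gene Slc7a1 (0.09), none past the threshold. Of the 9 detected Slc38a genes 0 passed it by limma, and 1 had an unadjusted p under 0.05. The probe that stood for Slc38a6, named after its values were seen, had a change of 0.10. A second Slc38a6 probe, above background on all 6 arrays, rose by 0.66 (limma adjusted p = 0.0494 over all probes).

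The cystine and glutamate exchanger gene Slc7a11 was above background on 1 control array and on no knockdown array, and Slc43a1 was above background on none, so neither was tested.

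**Figure D2:**
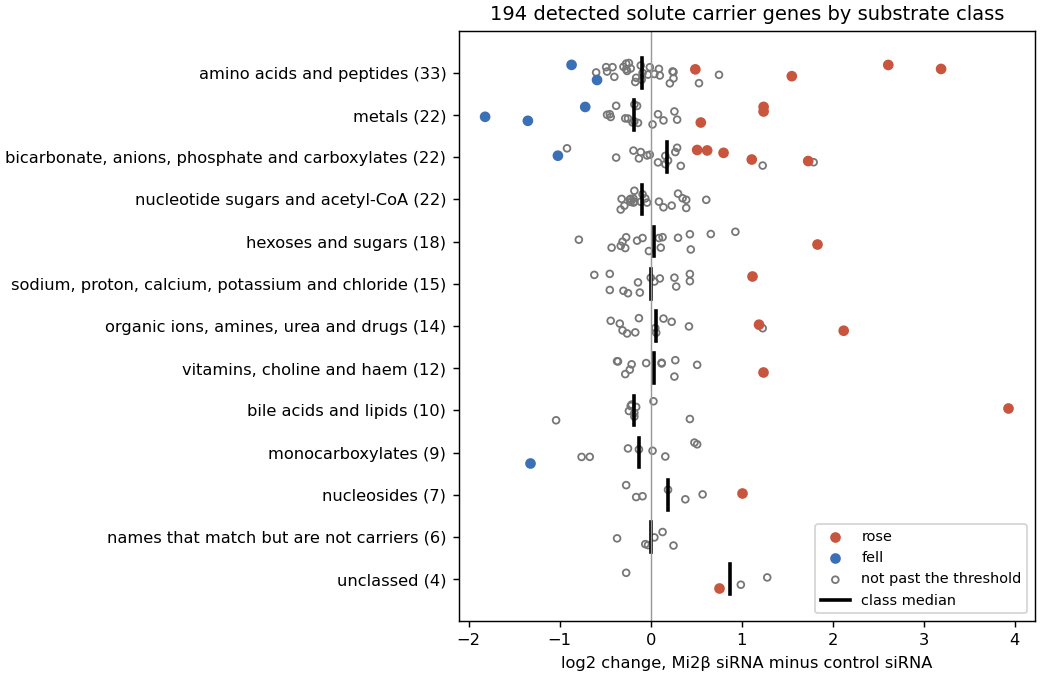
Change of each of the 194 detected solute carrier genes (horizontal axis, log2, knockdown minus control), by substrate class, with the number of genes in parentheses. Red points rose, blue points fell, open points were not past the threshold and black bars are class medians, which lie between -0.18 and 0.19 except for the 4 unclassed genes (0.87). The changed genes stand out from narrow middles, and the nucleotide sugar class has no coloured point.

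Carriers of metals were the class with as many falls as rises: of 22 detected genes 3 rose and 3 fell, with a median of -0.18. All but 1 of the 6 were zinc carriers. Among 11 detected ZIP genes 2 rose and 2 fell, and 1 of 7 detected ZnT genes rose. Slc39a3, which encodes the zinc importer ZIP3, had the largest fall of the 194 genes. Its levels were 1.33, 1.53 and 1.26 on the control arrays and -0.44, -0.43 and -0.47 on the knockdown arrays, so that the knockdown arrays were nearly equal and all far below the control arrays. The fall was 3.53-fold (change -1.82, SE 0.11, limma adjusted p = 0.000645). Slc39a10, which encodes ZIP10, was at -0.35, -0.38 and -0.36 against -1.65, -1.68 and -1.82 and fell 2.55-fold (change -1.35, SE 0.09, limma adjusted p = 0.00105). Their probes lie at chr10:80491285-80491344 and chr1:46865343-46865402 (mm9).

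Slc39a6 encodes ZIP6, the importer closest to ZIP10 and known to pair with it, and it changed in the opposite direction. Its levels were 0.01, 0.28 and -0.15 on the control arrays and 1.41, 1.27 and 1.2 on the knockdown arrays, with a gap of about a log2 unit between the groups. It rose 2.37-fold (change 1.24, SE 0.14, limma adjusted p = 0.00501). Slc30a2 encodes ZnT2, which loads zinc into vesicles, and went from -0.92, -1.32 and -1.31 to 0.06, -0.09 and 0.19, a rise of 2.36-fold (change 1.24, SE 0.15, limma adjusted p = 0.00646). Within row 1 the rise of Slc30a2 was 1.11 and missed the threshold (0.0694). With array median scaling, which moves the median of all genes from -0.03 to -0.27, the rises of Slc39a6 (1.01, limma adjusted p = 0.128) and Slc30a2 (1.01, limma adjusted p = 0.13) were not past it either.

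Slc39a8, the importer ZIP8 of zinc and manganese, was at 4.75, 4.87 and 4.52 against 5.32, 5.15 and 5.34. All knockdown arrays were above all control arrays, but the change was just inside the threshold (0.55, SE 0.13, limma adjusted p = 0.0491) and was lost with any 1 array left out (0.0696 to 0.184). The zinc exporter gene Slc30a1, a known target of the metal-sensing factor MTF-1, was at 2.19, 2.26 and 1.83 against 1.70, 1.5 and 1.64 (change -0.48, limma adjusted p = 0.107). Slc30a10, which exports manganese, was at 1.68, 1.70 and 1.79 against 1.09, 1.22 and 1.55 (change -0.44, 0.125). In both the knockdown arrays lay below the control arrays without passing the test. Slc39a7, the ZIP7 of the endoplasmic reticulum and Golgi, had a change of -0.18 (limma adjusted p = 0.267). The remaining zinc carriers had changes between -0.45 (Slc39a9) and 0.26 (Slc39a4), none past the threshold. Slc41a1, a magnesium carrier gene, was the other fall of the class, from -0.55, -0.62 and -0.55 to -1.35, -1.39 and -1.13 (change -0.72, SE 0.11, limma adjusted p = 0.012). That call was lost without control array 1 (0.0565) or knockdown array 1 (0.0722).

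**Figure D3:**
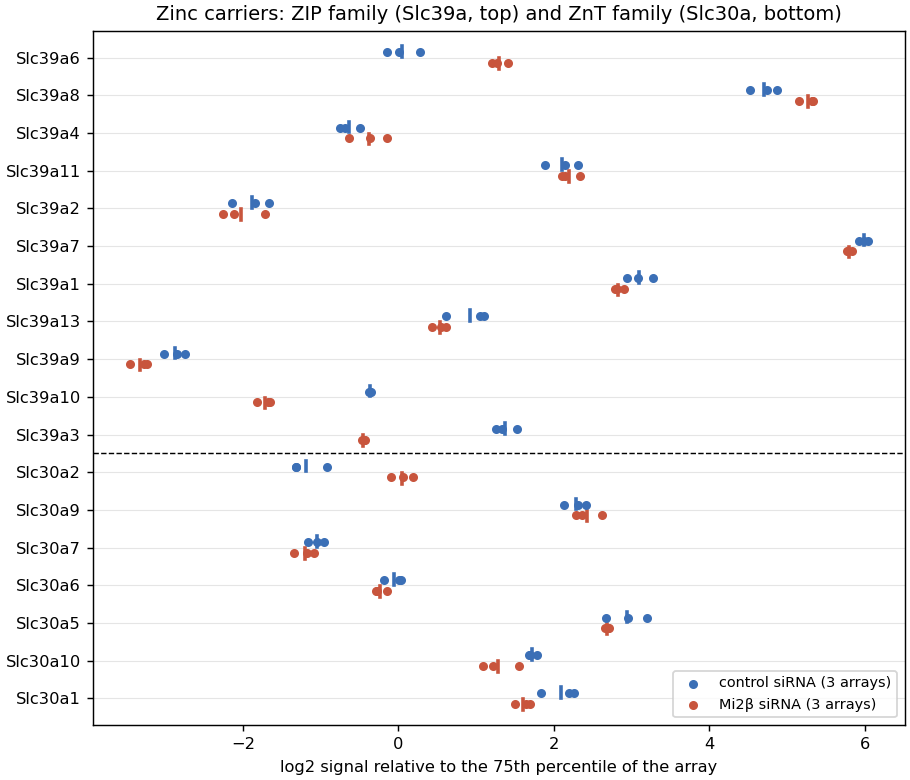
Levels of the 11 detected ZIP genes (above the dashed line) and the 7 detected ZnT genes (below it) on each array, in log2 units relative to the 75th percentile of the array, with 3 control arrays in blue, 3 knockdown arrays in red and group means as short bars. Slc39a6 and Slc30a2 are clearly separated to the right, Slc39a3 and Slc39a10 to the left, and the groups lie close together or overlap for most other zinc carriers.

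The sequences before the starts of 3 of the changed zinc carrier genes are shown for the metal response element, the site of MTF-1. Here capitals mark TGCACNC or TGCGCNC or their reverse complements, or, for Slc39a10, the GATA motif given above. The runs are again 250 bases of RefSeq sequence (GRCm38.p6).
Slc30a2 (chr4:134343216-134343465, plus strand): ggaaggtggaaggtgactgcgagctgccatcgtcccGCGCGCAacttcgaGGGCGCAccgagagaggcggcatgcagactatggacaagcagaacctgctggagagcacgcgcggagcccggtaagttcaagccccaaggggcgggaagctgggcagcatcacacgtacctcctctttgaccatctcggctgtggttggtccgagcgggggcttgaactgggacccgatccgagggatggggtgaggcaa
Slc39a3 (chr10:81037316-81037565, minus strand): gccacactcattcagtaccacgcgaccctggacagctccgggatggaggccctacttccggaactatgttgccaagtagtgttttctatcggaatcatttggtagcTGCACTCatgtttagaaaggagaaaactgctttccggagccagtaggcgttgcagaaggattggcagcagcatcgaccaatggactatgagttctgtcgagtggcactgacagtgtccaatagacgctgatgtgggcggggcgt
Slc39a10 (chr1:46925777-46926026, minus strand): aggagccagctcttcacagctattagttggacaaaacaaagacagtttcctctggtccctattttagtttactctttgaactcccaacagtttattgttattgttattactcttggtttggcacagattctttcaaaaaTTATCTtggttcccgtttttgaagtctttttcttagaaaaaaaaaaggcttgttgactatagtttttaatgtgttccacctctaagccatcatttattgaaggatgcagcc
Slc30a2 holds 2 matches of the metal response element and Slc39a3 holds 1, one gene having risen and the other fallen. Slc39a10 holds 0 before either of its 2 starts, and its GATA match is before the second start alone, the one shown. Slc39a8, not shown, holds 1 match of the metal response element before the second of its 2 starts. That element was before 3 of 5 fallen genes and 31.6% of tested members not past the threshold.

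Mtf1 itself and the metallothionein genes belong to a list of 62 carriers and partners whose names lie outside the Slc pattern. Of the 44 tested, 6 rose and 2 fell, with a median of 0.06, against 4.98% and 4.58% of all genes and a median of -0.03. Mt2, which encodes a zinc-binding metallothionein, rose from 6.76, 6.82 and 6.98 to 8.48, 8.50 and 8.53 (change 1.65, SE 0.10, limma adjusted p = 0.000694). Mt1 had a change of 0.44 that missed the threshold (0.0689), and Mtf1 rose by 0.62 (limma adjusted p = 0.0117), both picked out after their values were seen. The largest change of the list was that of Slco1a5, an organic anion carrier of the OATP type, from -2.81, -2.47 and -1.86 to -0.22, 0.15 and 0.49 (change 2.52, SE 0.30, limma adjusted p = 0.00569). Spns2, the exporter of sphingosine 1-phosphate, fell from 6.08, 6.10 and 5.72 to 3.73, 3.62 and 4.21 (change -2.11, SE 0.20, limma adjusted p = 0.00267). Pqlc1 rose by 1.52 (SE 0.10, limma adjusted p = 0.00112).

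Carriers of bicarbonate, other anions, phosphate and carboxylates had the most rises, 5 of 22 detected, with 1 fall and a median of 0.18. That is 22.7% and 4.55%, against 4.98% and 4.58% of all genes. Besides Slc26a9, the rises were small or near the threshold and are named with their values known. Slc17a9 was called under 6 of 22 alternatives and Slc4a5 under 9, so the count of rises depends on the setting. Slc4a5 and Slc4a7, which encode sodium and bicarbonate cotransporters, had changes of 1.11 (SE 0.25, limma adjusted p = 0.0498) and 0.80 (SE 0.15, 0.0247). Slc4a5 ranged from -4.29 to -3.86 on the control arrays and from -3.41 to -2.64 on the knockdown arrays. Slc26a1, a sulphate and oxalate carrier gene, rose by 0.62 (SE 0.13, 0.0355) and Slc17a9, the vesicular nucleotide carrier gene, by 0.51 (SE 0.11, 0.0427). With 1 array left out in turn, the adjusted p by limma ran from 0.0176 to 0.173 for Slc4a5, from 0.0216 to 0.113 for Slc4a7, from 0.0399 to 0.116 for Slc26a1 and from 0.0507 to 0.174 for Slc17a9. Only Slc4a5 and Slc26a1 without knockdown array 3, and Slc4a7 without control array 2, stayed past the threshold. The fall was that of Slc26a6, an exchanger of chloride, bicarbonate and oxalate, from -0.02, 0.19 and -0.12 to -0.84, -1.01 and -1.14 (change -1.02, SE 0.13, limma adjusted p = 0.00766). All 3 of its probes fell, and the groups were apart by more than the spread within either. Within row 1 the change was -1.01 and just missed the threshold (0.0558). Slc26a4 had a change of 1.79 that was not past the threshold (0.294). Its control array 1, at -3.63, lay with the knockdown arrays, at -3.52, -3.54 and -4.60, while the other two controls were at -6.60 and -6.80. The phosphate carrier gene Slc20a1 had a change of -0.11.

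The vitamin class held 1 rise among 12 detected genes (median 0.04). Slc19a1, the reduced folate carrier, went from 2.75, 2.80 and 2.54 to 4.12, 3.95 and 3.72, with every knockdown array above every control array (change 1.23, SE 0.14, limma adjusted p = 0.00533). A second probe also rose (0.68, limma adjusted p = 0.0334 over all probes). The proton-coupled folate carrier gene Slc46a1 had a change of -0.21 and the lysosomal haem carrier gene Slc48a1 one of -0.23 (0.573 and 0.234). The choline carrier gene Slc44a2 was just outside the threshold, at 3.77, 3.64 and 3.49 against 4.15, 4.03 and 4.25 (change 0.51, limma adjusted p = 0.0502). Slc46a3 had a change of -0.36 (0.168).

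Of 7 nucleoside carrier genes, all detected, 1 rose (median 0.19). That gene, Slc29a1, encodes the equilibrative nucleoside carrier ENT1 of the red cell membrane and went from 4.12, 4.01 and 4.01 to 5.17, 5.11 and 4.87 (change 1.00, SE 0.11, limma adjusted p = 0.00535). The concentrative carrier gene Slc28a2 varied widely, from -6.72 to -3.96 on the control arrays and from -6.28 to -3.55 on the knockdown arrays (change 0.57, 0.777).

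Among 14 detected carriers of organic ions, amines and urea 2 rose. The second after Slc22a17 was Slc22a18, an imprinted organic cation carrier gene, at 0.13, 0.10 and 0.28 against 1.31, 1.30 and 1.45 (change 1.19, SE 0.10, limma adjusted p = 0.00192). Arrays of each group were close together, and the groups were a log2 unit apart. The rises of Slc19a1, Slc29a1 and Slc22a18 held under every alternative except array median scaling, where the changes were 1.00, 0.77 and 0.95 (limma adjusted p = 0.135, 0.372 and 0.173). The vesicular amine carrier gene Slc18a1 was at -3.41, -3.24 and -3.24 against -2.39, -2.48 and -1.34, with all knockdown arrays higher, but missed the threshold (change 1.23, limma adjusted p = 0.0681). Slc22a23 had a change of -0.34 (0.0698). The urea carrier gene Slc14a1, known from the red cell membrane, was above background on no array, and the ergothioneine carrier gene Slc22a4 on 2 knockdown arrays only, so neither was tested.

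Of 18 detected hexose and sugar carriers, Slc5a2 alone was called (median 0.03), and of the 8 detected Slc2a carriers 0 were called by limma, with 4 at an unadjusted p under 0.05. Slc2a1, the red cell glucose carrier GLUT1, was at 5.43, 5.33 and 5.71 against 4.77, 5.23 and 5.62 (change -0.28, SE 0.24, limma adjusted p = 0.54). Slc2a3 had a change of -0.33 (0.336). In both, knockdown array 3 lay within the control range. Slc2a9, a urate carrier gene, was higher on all 3 knockdown arrays (change 0.93, 0.0885).

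In the monocarboxylate class 1 of 9 detected genes fell (median -0.13). Slc16a13 encodes the carrier MCT13 and was at 1.2, 1.22 and 1.05 against -0.08, -0.19 and -0.26, a fall of 2.52-fold (change -1.33, SE 0.10, limma adjusted p = 0.00137). A second probe gave -0.40 and did not pass (0.205 over all probes), so that the 2 probes differ in size and in call. The lactate carrier gene Slc16a1 had a change of -0.13 (0.562), Slc16a6 one of 0.16 (0.367) and Slc16a12 one of -0.76 (0.181).

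The remaining classes held 3 calls. Slc12a9, of the cation and chloride cotransporter family, was at -3.92, -4.32 and -4.53 against -3.23, -2.94 and -3.27 (change 1.11, SE 0.19, limma adjusted p = 0.0196). It was the 1 rise among 15 detected carriers of sodium, protons, calcium, potassium and chloride. The call was lost without control array 2 (0.0779), knockdown array 1 (0.0778) or knockdown array 2 (0.0627), and with normexp, where the change was 0.31 (0.0787). Slc35g1, left unclassed, went from -0.33, 0.10 and -0.24 to 0.66, 0.76 and 0.35 (change 0.75, SE 0.17, limma adjusted p = 0.0469), and the call held with knockdown array 3 left out but with none of the other 5 (0.0487 to 0.173 over the 6 arrays left out in turn). The third call was Slc51a, the 1 rise among 10 bile acid and lipid carriers (median -0.18). Slc10a1 in that class has a bright probe (10.22 and 9.97 as group means, change -0.24) and another probe above background on no array.

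The nucleotide sugar and acetyl-CoA carriers, which supply the Golgi and endoplasmic reticulum, were the largest class without a call. Of 22 detected genes 0 passed the threshold by limma, and 2 had an unadjusted p under 0.05. Over all genes tested 9.56% passed in either direction. Changes of the class ran from -0.33 to 0.61, with a median of -0.10. The groups did not overlap for 3 of the 22 (13.6%), against 31% of all genes. Whether the class differs from all genes in these shares was not tested. Slc35c1, which carries GDP-fucose, had a change of -0.22 (0.359), and those of Slc35f3 (0.61) and Slc35a5 (0.39) were of dim probes with overlapping arrays. Slc35f5, named after its values were seen, also had a change of 0.39, was above background on all 6 arrays and had groups that did not overlap (limma adjusted p = 0.0892, and 0.0223 to 0.856 over 22 alternatives, of which 3 called it). The 6 names set apart as non-carriers held 0 calls by limma (1 at an unadjusted p under 0.05), with changes from -0.37 (Slc2a4rg-ps) to 0.25 (Slc22a13b-ps) and Slc4a1ap at 0.04.

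The changed genes were spread over the range of control signal, but not evenly. Among the 102 members whose control mean was below the median of that of all genes, 12 rose and 2 fell (11.8% and 1.96%), against 5.83% and 1.83% of all genes below it. At or above that median, 8 of 92 rose and 5 fell (8.70% and 5.43%), against 4.13% and 7.33% of all genes. Dim members were also the noisier ones. The median SD within a group was 0.16 (control) and 0.15 (knockdown) for the 163 members above background on all 6 arrays, and 0.49 and 0.58 for the 31 above background on 3 to 5. Just inside the detection rule were 11 members above background on exactly 3 arrays, with group means from -6.89 to -3.70. Just outside it were 18 members above background on 2 arrays, with group means from -6.75 to -4.20.

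**Figure D4:**
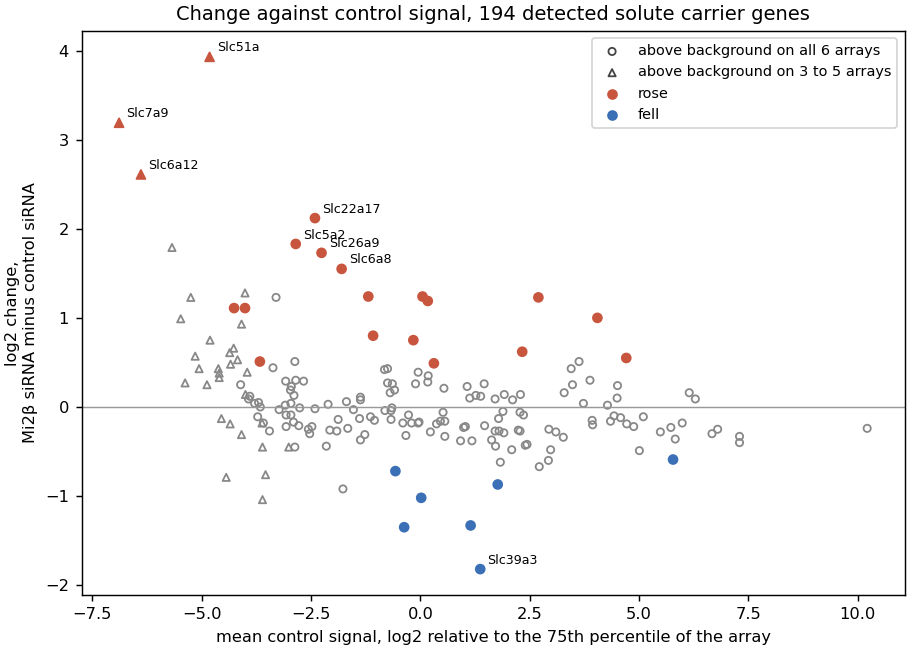
Change of each of the 194 detected solute carrier genes (vertical axis, log2, knockdown minus control) against its mean level on the 3 control arrays (horizontal axis, log2 relative to the 75th percentile of the array). Circles were above background on all 6 arrays and triangles on 3 to 5; filled red points rose and filled blue points fell. The 3 largest rises are triangles at the dim left edge, at control levels of -4.82, -6.89 and -6.39, and the 7 falls are all circles.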

How the data were processed

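Total RNA of 6 samples was labelled with Cy3 and hybridised to 1-colour Agilent arrays, per the labels. The deposited values are linear spot intensities from which the authors' software (per the file headers, Agilent Feature Extraction, version 10.7.3.1) had subtracted the background, with no scaling between arrays. A deposited table of these intensities in rounded form served as an alternative. After removal of control spots and of outlier-flagged spots, log2 signals of repeated spots were averaged by probe, and the 75th percentile of the non-control spots of each array was subtracted. The probe with the highest mean over 6 arrays stood for its gene name, and genes well above background on at least 3 arrays were tested (22022). Probes of 42 members could be set side by side: 0 had probes called in opposite directions, and in 3 (Slc16a13, Slc38a6 and Slc4a7) 1 probe was called and another was not.

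The 2 groups were compared in R 4.3.3 with the limma package, version 3.58.1, by a linear model of group alone and moderated two-sided tests (lmFit, eBayes). P-values were adjusted by Benjamini-Hochberg across the genes tested. The fit was tested on simulated data. The members, their substrate classes, the other lists, the markers and the tests were chosen with earlier results of these data known. Classes follow family names, and Slc4a1ap was put among the non-carriers on reading the names. The text names the 12 largest rises and the falls past the threshold, in each class the 2 largest changes and the member with the highest control mean, every call among amino acid, metal and hexose carriers, and a fixed set of carriers of red cell precursors. Some members under this rule are counted but not reported here. Genes outside that rule are said to be so where they appear.

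Probe coordinates are those of mm9, per the file headers. No genome of that build was used, so the exon under a probe is not given. Names are those of the array, and 306 of 321 members have a RefSeq symbol, which differs for 2. Sequences before starts are from RefSeq (GRCm38.p6). The number of arrays limits the precision. Alternatives were another background correction, scaling, detection filter, probe rule, variance model and minimum fold, the slide row and the replicate number as blocks, row 1 alone, and each array left out.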

Additional observations from a re-analysis of the deposited data

How the results depend on the processing

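The direction of each of the 27 called solute carrier genes was the same under all 22 alternatives that could measure it, while its call often was not. In the order of solute carrier genes that rose and fell, then all genes, the counts were 20, 7, 1097 and 1009. Counts that moved by over 1.5 times were as follows. Members that fell numbered 16 with normexp (all genes 1658), 11 with quantile normalization, 15 with both (all genes 1840 rose and 1690 fell), 12 with detection on all 6 arrays, 18 with an intensity trend (all genes 1776 fell) and 22 with array weights (all genes 2168 rose and 2531 fell). Members that rose numbered 8 with array median scaling (all genes 490 rose and 333 fell), 12 with no detection filter (659 and 331) and 13 with a minimum fold of 1.2 (647 and 347). With row 1 alone 12 members rose and 3 fell (495 and 226). The median change of members was -0.27 with array median scaling, where that of all genes was also -0.27, -0.09 with detection on all 6 arrays, 0.09 with no filter and 0.01 with row 1 alone. With each array left out in turn, 12 to 18 members rose, 5 to 8 fell and their median ran from -0.11 to 0.03, while 554 to 894 of all genes rose and 254 to 680 fell. The lowest counts of all genes came without knockdown array 1. The cause of these differences was not tested. Among 69 genes examined singly there were 1505 combinations of gene and setting, of which 120 ended a call and 51 added one. Only the 27 called genes could lose a call, so the share lost among them is higher than 120 of 1505. No setting turned the sign of a called member. Some turned that of members not past the threshold, such as Slc10a6 (-1.96 to 0.90), Slc28a2 (-0.21 to 1.43) and Slc38a1 (-0.24 to 1.18). Members that gained a call under 5 or more alternatives included Slc6a9, Slc13a4, Slc18a1, Slc24a5, Slc2a12, Slc30a1 and Slc44a2. The percentile taken over probes and the filter applied before the choice of probe were added after the data were seen.

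Same-numbered samples of the groups had deviations from their group means that correlated at 0.20, -0.32 and 0.13. Pairs with different numbers gave -0.41 to 0.32. Same-numbered samples also lay in adjacent columns of the same slide row. With so few arrays these correlations cannot tell whether the samples were paired, and the labels give only the number. With the replicate number as a block, 12 members rose and 4 fell, and 511 of all genes rose and 189 fell. Dim signals limit the largest rises: Slc51a, Slc7a9 and Slc6a12 were above background on 1 control array or none.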

Other observations

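Several changed solute carrier genes lie near one another, in both directions. On chromosome 1 the probe of Slc26a9, which rose, is 79 kb from that of Slc41a1, which fell (mm9). On chromosome 14 the fallen Slc7a8 lies between the risen Slc7a7, 352 kb away, and the risen Slc22a17, 184 kb away. Close paralogs beside changed genes were not always past the threshold themselves. Slc6a13, beside the risen Slc6a12, had a change of 0.24 (limma adjusted p = 0.239), and Slc16a11, beside the fallen Slc16a13, had one of -0.25 (0.476). Both changes had the sign of the neighbour, and the difference in size was not tested.

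The nearest genes on either side were looked up for the 26 changed members with a place in the RefSeq table (GRCm38.p6). Of 52 neighbours 33 were tested and 5 were called (15.2%, against 9.56% of all genes in either direction). Trip6, an adaptor protein gene beside Slc12a9, rose by 4.25, and Fgfrl1, a receptor gene beside Slc26a1, rose by 0.71, each in the direction of its neighbour. Col18a1, a collagen gene beside the risen Slc19a1, fell by 1.81 on the log2 scale, Nfkb1, beside the risen Slc39a8, fell by 0.72 on the log2 scale, and Cebpe, a myeloid transcription factor gene beside the fallen Slc7a8, rose by 1.36. The genes that overlap changed members, Rusf1 with Slc5a2 (-0.39), Idua with Slc26a1 (0.22) and Oxa1l with Slc7a7 (-0.05), were not past the threshold. These neighbours were picked for their place and are named after their values were seen.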
